A study of Mus musculus with 6 samples.

Results

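Nfe2l2, Keap1, Hmox1, Nqo1, Gclc, Gclm, Srxn1, Txnrd1, Mt1 and Mt2 are the core genes of the NRF2 response to oxidative stress and the main pair of metallothionein genes. These 10 genes were picked by symbol from a table of 52550 genes measured in mouse heart, where each symbol stood on 1 row. All 10 were among the 9907 genes that averaged 1 FPKM or more over the libraries and so entered the test. FPKM divide the fragments of a gene by its transcript length and by the library's mapped reads, so that levels of different genes can be set side by side. Left ventricular tissue was sequenced in 6 libraries, 3 from hearts labelled PGC1alpha overexpressed (group name PKI) and 3 from hearts labelled wild-type (WT). All came from C57BL/6J mice aged 12 months, and the labels give no other allele or treatment. The sources used here give neither the promoter nor the cell type that drives the overexpression. Nothing states that the numbered replicates are different animals, so the p-values rest on a spread that may be partly technical.

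NRF2, the transcription factor encoded by Nfe2l2, pairs with a small MAF protein and binds antioxidant response elements in the DNA near its target genes. KEAP1 holds NRF2 for ubiquitination by a CUL3 ligase, and oxidants or electrophiles that modify cysteines of KEAP1 release it. The targets make glutathione, reduce thioredoxin and quinones, repair peroxiredoxins and break down haem. Metallothioneins are small cysteine-rich proteins that bind zinc and copper. Their genes carry metal response elements, which bind the zinc-sensing factor MTF1, and they also respond to glucocorticoids and to STAT3. In cardiac muscle, which has a high rate of mitochondrial respiration, these genes are known for limiting oxidative injury.

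Mt1 and Mt2 lie next to each other on chromosome 8, and had log2 changes of different size, so the stretches before their starts are shown for comparison. The sequences are the 250 bases upstream of the transcript start in RefSeq (GRCm38.p6, plus strand for both genes), printed 5′ to 3′. Capitals mark the core of the metal response element, TGCACNC or TGCGCNC on either strand. The window of Mt2 is chr8:94172368-94172617 and that of Mt1 is chr8:94178839-94179088.
Mt2: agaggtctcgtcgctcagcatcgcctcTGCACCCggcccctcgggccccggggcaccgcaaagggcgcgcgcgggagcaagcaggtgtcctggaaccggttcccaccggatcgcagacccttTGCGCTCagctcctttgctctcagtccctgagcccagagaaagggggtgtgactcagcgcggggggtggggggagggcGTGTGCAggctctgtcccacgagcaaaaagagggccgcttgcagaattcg
Mt1: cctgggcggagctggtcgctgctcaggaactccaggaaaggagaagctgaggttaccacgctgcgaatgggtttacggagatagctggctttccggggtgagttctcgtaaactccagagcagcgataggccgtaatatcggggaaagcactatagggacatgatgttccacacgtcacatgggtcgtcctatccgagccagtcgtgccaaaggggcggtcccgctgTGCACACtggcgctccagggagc
The Mt2 window held 3 matches, 223, 128 and 50 bases before the start, and the Mt1 window held 1, at 23 bases. Of 32851 windows of this length in the RefSeq table, 21.4% held at least 1 match and 1.26% held at least 3. The Mt2 window also held 1 match to the antioxidant response element TGACNNNGC, searched on both strands, and the Mt1 window held 0. This match, TGACTCAGC, began 79 bases before the start and overlapped no marked metal response element. At least 1 such match stood in 10.2% of all windows. Starts differ between annotations, and elements outside the windows were not searched. Bases after each listed start were among those left out. The counts thus describe these windows, and do not show that Mt1 has fewer elements of either kind than Mt2.

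The RefSeq table matched 8 members with 10 windows, all but Hmox1 and Gclc. The antioxidant response element was found in 3 further windows. Nfe2l2 held TGACTCCGC at 240 bases before its start. Gclm held GCACCGTCA, a match on the opposite strand, at 134 bases before its start, where it overlapped a metal response element core. Txnrd1 has 3 windows, and the one ending at chr10:82859205 held GCTTTGTCA, also on the opposite strand, at 92 bases. The windows of Keap1, Nqo1 and Srxn1 held 0 matches. Under the looser pattern TGANNNNGC, at least 1 match stood in 35.2% of all windows and at least 3 in 1.06%. Srxn1 held 3 such matches. Keap1 held 1, at 61 bases, and a Txnrd1 window without a match to the stricter pattern held 1, at 84 bases. A match is only a string of letters here, and none was tested for binding.

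The whole table set limits that touch every value below. FPKM totals ran from 708058 to 726064 in PKI and from 747154 to 767757 in WT, and transcripts of the mitochondrial genome with their nuclear copies took 78.0% to 78.2% in PKI and 81.8% to 82.3% in WT. Depth is unknown. Over all tested genes the log2 change, PKI minus WT, had a median of 0.21 as deposited and −0.00 after each library was divided by its median-of-ratios size factor (1.09 to 1.12 in PKI, 0.906 to 0.926 in WT). Each member is therefore given on both scales, as deposited and after scaling. Ppargc1a, which encodes PGC-1α, did not stand higher in PKI libraries. It was measured at 11.6, 11.8 and 11.4 FPKM in PKI, against 14.2, 12.8 and 12.4 FPKM in WT (log2 change −0.16, SE 0.07, limma adjusted p = 0.0967; −0.42 and 0.00663 after scaling). Each direction below is therefore that of the labels. Heart muscle genes were abundant in both groups, with Myh6, the main myosin heavy chain gene of the adult mouse heart, at 1798 FPKM in PKI and 1773 FPKM in WT.

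As deposited, 9 of the 10 members rose in PKI, 0 fell, and Keap1 did not pass. Of all tested genes, 39.4% were called, 36.4% higher and 2.96% lower. After scaling 4 members stayed called, Nfe2l2, Hmox1, Mt1 and Mt2, all higher, against 16.8% of all tested genes called, 8.54% higher and 8.23% lower. The median log2 change of the 10 was 0.52 as deposited and 0.26 after scaling, beside 0.21 and −0.00 over all tested genes. With scaling and each of the 6 libraries left out in turn, Mt2 and Hmox1 passed in all 6 fits, Mt1 in 3 and Nfe2l2 in 2. In every member all 3 PKI values lay above all 3 WT values as deposited, as they did in 51.3% of tested genes. After scaling this held for 6 members, against 18.6% of tested genes. Keap1 then lay below WT in every library, as did 18.4% of tested genes. An exact two-sided permutation test of 3 against 3 libraries allows 20 arrangements and cannot go below p = 0.1, the value each member reached as deposited.

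**Figure D1:**
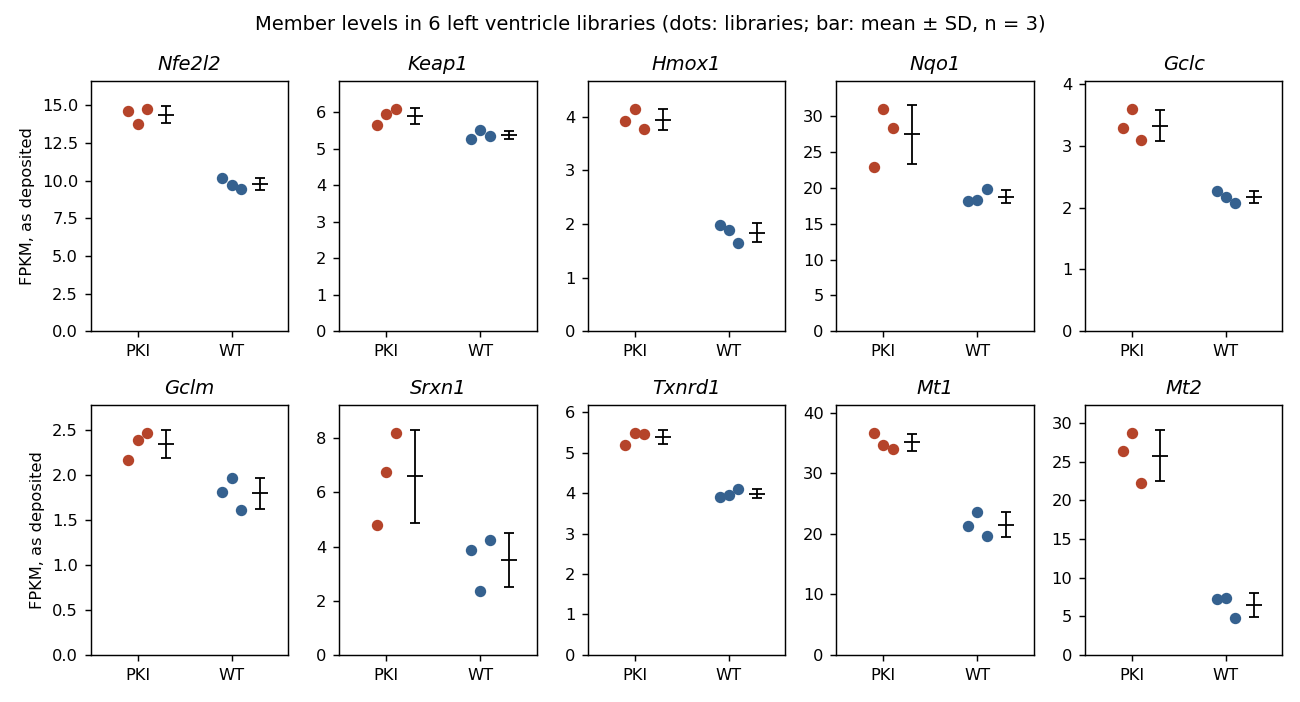
FPKM of each of the 10 genes as deposited (vertical axis, from 0, a scale of its own per panel) in the 3 PKI libraries (left) and the 3 WT libraries (right); dots are libraries, and the bar beside them is the mean ± SD (n = 3). The PKI dots lie above the WT dots in all 10 panels, with the widest gap in Mt2 (25.8 ± 3.33 and 6.47 ± 1.51 FPKM) and the narrowest in Keap1 (5.90 ± 0.222 and 5.37 ± 0.119 FPKM).

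The metallothioneins held the largest change. Mt2 (ENSMUSG00000031762, chromosome 8: 94172664 to 94173568, plus strand, GRCm38) stood at 26.4, 28.8 and 22.2 FPKM in PKI, against 7.24, 7.43 and 4.73 FPKM in WT. Its lowest PKI library was about 3 times its highest WT library. The ratio of means was 3.99, the log2 change 1.86 (SE 0.17, 95% interval 1.47 to 2.25, limma adjusted p = 0.000770), and 1.61 after scaling (adjusted p = 0.00155). In the order of all tested genes by log2 change, Mt2 ranked 36. Without any 1 library the log2 change stayed between 1.68 and 1.96.

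Mt1 (ENSMUSG00000031765, chromosome 8: 94179082 to 94180327, plus strand) had the highest mean of the 10 in both groups, at 36.8, 34.6 and 34.0 FPKM in PKI, against 21.3, 23.7 and 19.6 FPKM in WT. The PKI libraries stayed within 3 FPKM of each other, and the groups did not overlap. Mt1 rose 1.63-fold in mean FPKM (log2 change 0.68, SE 0.08, limma adjusted p = 0.00166), 0.42 after scaling (adjusted p = 0.0148). The scaled call was lost without PKI replicate 1, PKI replicate 3 or WT replicate 3, with an adjusted p of up to 0.0530.

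Because both genes are read in the same library, their ratio does not depend on scaling by a single factor per library. Mt2 over Mt1 was 0.718, 0.832 and 0.653 in PKI, against 0.340, 0.314 and 0.241 in WT. The lowest PKI ratio was nearly double the highest WT ratio, a log2 difference of 1.31. The two-sided p of the exact permutation test was 0.1, the smallest it can give, and 0.2 adjusted over the 8 ratios computed. The annotated transcripts of the genes (3 of Mt1, 2 of Mt2) share no run of identical bases longer than 20, and an antisense gene over Mt2, Gm45774, was listed at a mean of 0.0441 FPKM. The neighbour Mt3, a metallothionein known mainly from brain, was barely detected, at 0.493, 0.331 and 0.0859 FPKM in PKI, against 0.0869, 0.333 and 0 FPKM in WT.

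Of the factor and its inhibitor, Nfe2l2 rose and Keap1 did not pass. Nfe2l2 (ENSMUSG00000015839, chromosome 2: 75675513 to 75704641, minus strand) stood at 14.6, 13.8 and 14.8 FPKM in PKI, against 10.2, 9.74 and 9.43 FPKM in WT. Replicates were tight, with a coefficient of variation of 3.87% in PKI and 3.76% in WT, and the groups lay well apart. Nfe2l2 rose 1.47-fold (log2 change 0.51, SE 0.06, limma adjusted p = 0.00198), and by 0.26 after scaling (adjusted p = 0.0324). That scaled call was lost without PKI replicate 1, PKI replicate 3, WT replicate 2 or WT replicate 3, with an adjusted p of up to 0.119.

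Keap1 (ENSMUSG00000003308, chromosome 9: 21229730 to 21239361, minus strand) stood at 5.65, 5.95 and 6.09 FPKM in PKI, against 5.27, 5.50 and 5.35 FPKM in WT. The gap between the groups was smaller than the range within PKI. Its log2 change of 0.11 did not pass (SE 0.06, 95% interval −0.03 to 0.26, limma adjusted p = 0.179) and turned to −0.12 after scaling (95% interval −0.27 to 0.03, adjusted p = 0.259). Within libraries, Nfe2l2 over Keap1 was 2.59, 2.31 and 2.43 in PKI, against 1.93, 1.77 and 1.76 in WT. This log2 difference of 0.42 is not altered by any single factor per library (exact permutation p = 0.1, the smallest possible, and 0.2 adjusted over the 8 ratios).

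**Figure D2:**
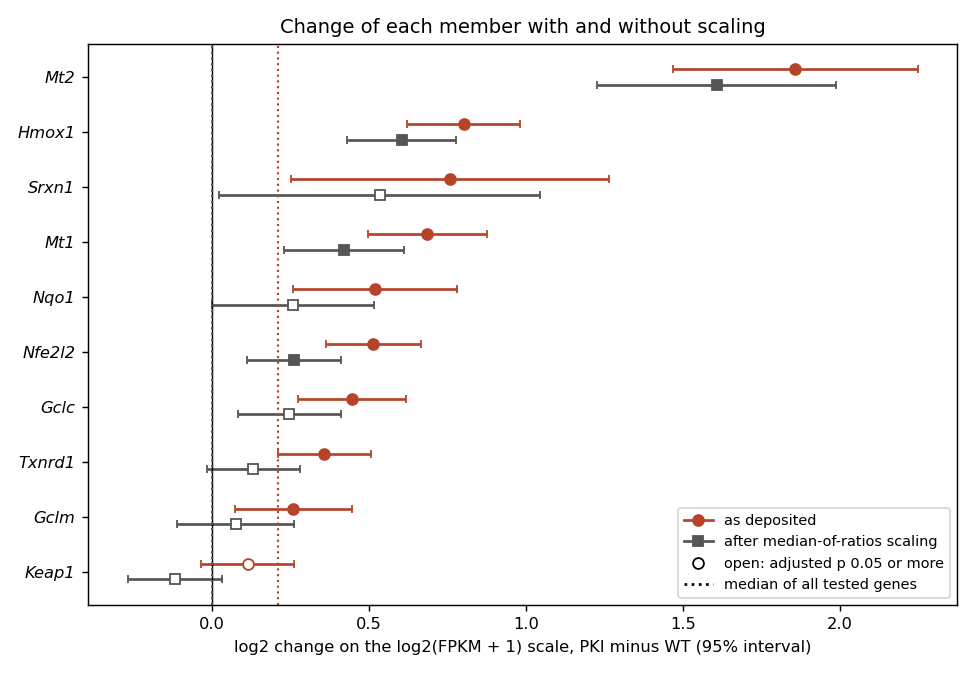
Log2 change of each member on the log2(FPKM + 1) scale, PKI minus WT (horizontal axis), with its 95% interval, as deposited (red circles) and after median-of-ratios scaling (grey squares); open symbols have an adjusted p of 0.05 or more, and dotted lines mark the median of all tested genes (0.21 and −0.00). Filled squares, called after scaling, are those of Mt2, Hmox1, Mt1 and Nfe2l2, and Keap1 lies on either side of 0 depending on the scale.

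Hmox1 (ENSMUSG00000005413, chromosome 8: 75093621 to 75100589, plus strand) encodes the inducible haem oxygenase, which splits haem into biliverdin, iron and carbon monoxide. It stood at 3.92, 4.15 and 3.76 FPKM in PKI, against 1.98, 1.89 and 1.64 FPKM in WT. The groups lay far apart, with little spread in either. Hmox1 rose 2.15-fold (log2 change 0.80, SE 0.08, limma adjusted p = 0.000911), and by 0.60 after scaling (adjusted p = 0.00261). With scaling and 1 library left out, the highest adjusted p was 0.0138.

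Hmox1 is also strongly expressed by macrophages, and macrophage markers moved with the groups. All 10 of 10 listed macrophage markers rose as deposited and 8 rose after scaling, and their summed level was 222 to 240 FPKM in PKI, against 74.0 to 113 FPKM in WT, with 0 of the 10 at zero. Fibroblast markers rose in 9 of 10, summed to 341 to 413 FPKM in PKI, against 115 to 170 FPKM in WT, and the 9 also passed after scaling. Over all tested genes 36.4% rose as deposited and 8.54% after scaling. The part of these cell types in the member values was not tested. In bulk tissue, a change in the number of cells of a type and a change in RNA per cell cannot be told apart.

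Counts for the other listed cell types were mixed. Over all tested genes 36.4% rose and 2.96% fell as deposited, and 8.54% rose and 8.23% fell after scaling. Of 10 endothelial markers 2 rose (summed 143 to 165 FPKM in PKI and 133 to 142 FPKM in WT), and after scaling 0 rose and 1 fell. Of 7 tested smooth muscle and pericyte markers 4 rose (184 to 221 FPKM in PKI and 118 to 147 FPKM in WT), 1 after scaling. Of 10 cardiomyocyte markers 2 rose and 4 fell (12115 to 13018 FPKM in PKI and 11815 to 12649 FPKM in WT), and 0 rose and 7 fell after scaling. Of 5 tested red blood cell markers 5 fell (274 to 338 FPKM in PKI and 380 to 538 FPKM in WT), also 5 after scaling. The single tested marker of neutrophils and lymphocytes, S100a9, was not called, and the neutrophil marker Ly6g was listed at 0 in all 6 libraries.

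Nqo1 (ENSMUSG00000003849, chromosome 8: 107388225 to 107403206, minus strand), whose enzyme reduces quinones by transferring electrons in pairs, stood at 23.0, 31.1 and 28.4 FPKM in PKI, against 18.1, 18.3 and 19.8 FPKM in WT. PKI replicate 1 lay closest to WT, and the spread was wider in PKI (coefficient of variation 15.0%) than in WT (4.83%). Nqo1 rose 1.47-fold as deposited (log2 change 0.52, SE 0.11, limma adjusted p = 0.0121), and its value of 0.26 after scaling did not pass (95% interval −0.00 to 0.52, adjusted p = 0.165). Without PKI replicate 1 the scaled value passed (0.38, adjusted p = 0.0369). Nqo1 over Nfe2l2 overlapped between groups, at 1.57, 2.26 and 1.93 in PKI and 1.78, 1.88 and 2.10 in WT (exact permutation p = 1).

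Gclc and Gclm encode the catalytic and the modifier subunit of glutamate-cysteine ligase, which makes the rate-limiting step of glutathione synthesis. Gclc (ENSMUSG00000032350, chromosome 9: 77754535 to 77794485, plus strand) stood at 3.28, 3.60 and 3.09 FPKM in PKI, against 2.27, 2.17 and 2.07 FPKM in WT. The groups did not overlap on either scale. Gclc rose 1.53-fold as deposited (log2 change 0.45, SE 0.07, limma adjusted p = 0.00522), and just missed the threshold after scaling (0.25, adjusted p = 0.0535). Gclm (ENSMUSG00000028124, chromosome 3: 122245557 to 122270732, plus strand) stood at 2.17, 2.39 and 2.47 FPKM in PKI, against 1.81, 1.96 and 1.62 FPKM in WT. It rose 1.30-fold as deposited (log2 change 0.26, SE 0.08, limma adjusted p = 0.0379). This was the weakest call of the 9: it was lost without PKI replicate 1, 2 or 3 or WT replicate 1 or 3 (adjusted p up to 0.115) and after scaling (0.07, adjusted p = 0.582), where the groups overlapped. The ratio of Gclc to Gclm was 1.51, 1.5 and 1.25 in PKI, against 1.25, 1.11 and 1.28 in WT, with overlap (exact permutation p = 0.3).

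The thiol repair enzymes differed in their spread. Txnrd1 (ENSMUSG00000020250, chromosome 10: 82833951 to 82897712, plus strand), the cytosolic thioredoxin reductase, stood at 5.18, 5.50 and 5.47 FPKM in PKI, against 3.90, 3.96 and 4.10 FPKM in WT. Replicates lay close together and the groups apart. It rose 1.35-fold as deposited (log2 change 0.36, SE 0.06, limma adjusted p = 0.00639), and 0.13 after scaling did not pass (adjusted p = 0.210). Gm38560, which overlaps it on the other strand, was at a mean of 0.677 FPKM, and since the library kit does not mark strand its reads cannot be told from those of Txnrd1 where they overlap.

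Srxn1 (ENSMUSG00000032802, chromosome 2: 152105516 to 152111376, plus strand) encodes sulfiredoxin, which restores over-oxidised peroxiredoxins. It stood at 4.81, 6.77 and 8.21 FPKM in PKI, against 3.88, 2.37 and 4.24 FPKM in WT. It was the most variable member, with a coefficient of variation of 25.9% in PKI and 28.4% in WT, and PKI replicate 1 lay just above the highest WT library. Srxn1 rose 1.89-fold as deposited (log2 change 0.76, SE 0.22, limma adjusted p = 0.0304), and the call was lost without PKI replicate 2, PKI replicate 3 or WT replicate 2 (adjusted p up to 0.0858) and after scaling (0.53, adjusted p = 0.146). On the log2(FPKM + 1) scale its change was close to that of Hmox1, with an SE nearly 3 times as large. The ratio of means was 1.89 for Srxn1 and 2.15 for Hmox1.

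**Figure D3:**
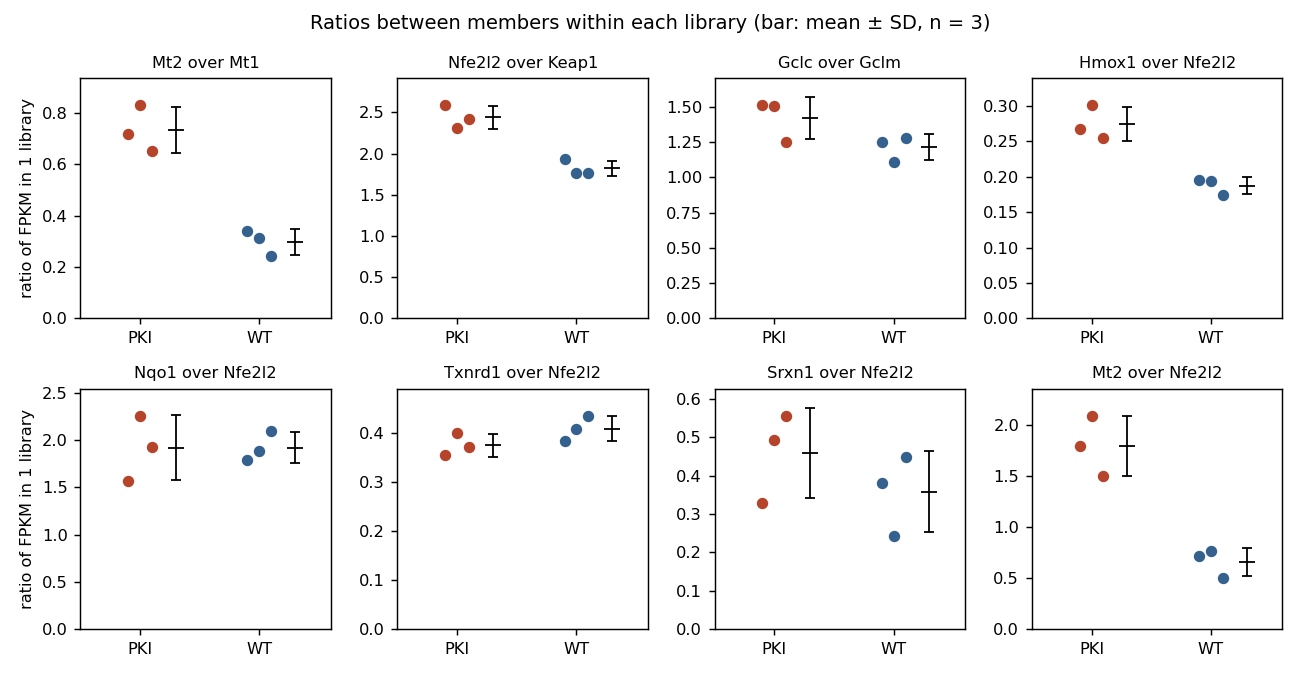
Ratios between pairs of members within each library (vertical axis, ratio of FPKM, from 0) for the 3 PKI libraries (left) and the 3 WT libraries (right); the bar is the mean ± SD (n = 3). Mt2 over Mt1 (0.734 ± 0.0906 and 0.298 ± 0.0514), Nfe2l2 over Keap1, Hmox1 over Nfe2l2 and Mt2 over Nfe2l2 do not overlap between groups, and the other 4 ratios do. How often ratios of other gene pairs separate was not computed. After scaling, PKI lay above WT in every library for 18.6% of single tested genes and below for 18.4%.

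Ratios to Nfe2l2 were computed for Hmox1, Nqo1, Txnrd1, Srxn1 and Mt2, and were not compared with each other or with ratios of other genes. Hmox1 over Nfe2l2 was 0.268, 0.302 and 0.255 in PKI, against 0.195, 0.194 and 0.174 in WT, without overlap, and Mt2 over Nfe2l2 was 1.80, 2.09 and 1.5 in PKI, against 0.712, 0.763 and 0.501 in WT. Each had an exact permutation p of 0.1, the smallest possible, and 0.2 adjusted over the 8 ratios. Txnrd1 over Nfe2l2 (0.375 ± 0.0233 in PKI and 0.408 ± 0.0258 in WT) and Srxn1 over Nfe2l2 (0.459 ± 0.117 in PKI and 0.358 ± 0.105 in WT; SD, n = 3 each) overlapped between groups, with exact permutation p = 0.2 and 0.4.

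By level, the order in PKI was Mt1, Nqo1, Mt2, Nfe2l2, Srxn1, Keap1, Txnrd1, Hmox1, Gclc and Gclm, with means of 35.1, 27.5, 25.8, 14.4, 6.59, 5.90, 5.39, 3.94, 3.32 and 2.34 FPKM. Library values of Nqo1 and Mt2 overlapped there, as did those of Srxn1 with Keap1 and Txnrd1. In WT the order was Mt1, Nqo1, Nfe2l2, Mt2, Keap1, Txnrd1, Srxn1, Gclc, Hmox1 and Gclm, at 21.5, 18.8, 9.78, 6.47, 5.37, 3.99, 3.50, 2.17, 1.84 and 1.80 FPKM. Neighbours that overlapped in WT were Mt1 with Nqo1, Mt2 with Keap1, Txnrd1 with Srxn1, and Hmox1 with Gclm. Mt2 thus stood below Nfe2l2 in each WT library and above it in each PKI library, in FPKM as deposited.

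Of 9 tested regulators and partners of NRF2 other than KEAP1, 3 rose and 0 fell (median log2 change 0.08), beside 36.4% higher over all tested genes, and 1 rose after scaling (median −0.15), beside 8.54%. Sqstm1, which encodes the autophagy receptor p62 that binds KEAP1 and is itself an NRF2 target, averaged 84.5 ± 3.41 FPKM in PKI and 52.1 ± 4.76 FPKM in WT (SD, n = 3 each; log2 change 0.69, limma adjusted p = 0.00138; 0.42 and 0.0143 after scaling, the scaled call holding in 4 of the 6 fits without 1 library). The small MAF genes Mafk (8.05 ± 0.678 FPKM in PKI and 4.53 ± 1.2 FPKM in WT) and Maff (2.54 ± 0.382 FPKM in PKI and 1.46 ± 0.410 FPKM in WT) rose as deposited only (limma adjusted p = 0.0721 and 0.131 after scaling). Maff lost its call in 4 of the 6 fits without 1 library (adjusted p up to 0.0686). Another small MAF gene, Mafg, averaged 2.96 ± 0.976 FPKM in PKI and 3.21 ± 0.163 FPKM in WT, with overlap. Its log2 change was −0.12 as deposited and −0.32 after scaling, called on neither scale. The ligase gene Cul3 was at 22.0 ± 0.249 FPKM in PKI and 20.7 ± 1.64 FPKM in WT, and the competing repressor gene Bach1 at 3.30 ± 0.192 FPKM in PKI and 3.12 ± 0.167 FPKM in WT, neither called. Bach2, Nfe2l3 and Btrc lay under the minimum and were not tested. Bach2 averaged 0.151 ± 0.104 FPKM in PKI and 0.363 ± 0.107 FPKM in WT, with every PKI library below every WT library on both scales. Of tested genes, 4.53% stood so as deposited and 18.4% after scaling. Nfe2l3 and Btrc overlapped between groups.

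Of 32 further NRF2 targets, 24 were tested, of which 12 rose and 0 fell (36.4% of all tested genes rose), with a median of 0.26. After scaling 5 rose and 1 fell, with a median of 0.08. Ugdh, which makes UDP-glucuronic acid, averaged 1.88 ± 0.138 FPKM in PKI and 0.916 ± 0.0910 FPKM in WT. Akr1b8, an aldo-keto reductase gene, averaged 3.05 ± 0.481 FPKM in PKI and 1.32 ± 0.230 FPKM in WT. The drug and glutathione conjugate exporter gene Abcc1 averaged 2.08 ± 0.0768 FPKM in PKI and 1.18 ± 0.113 FPKM in WT. These were the 3 with the smallest p (limma adjusted p = 0.00237, 0.00307 and 0.00335), all also called after scaling. Ugdh and Akr1b8 passed in all 6 scaled fits without 1 library, and Abcc1 in 2. The gene that fell after scaling, Gstp1, averaged 53.7 ± 3.08 FPKM in PKI and 55.4 ± 1.14 FPKM in WT. Its log2 change was −0.04 as deposited, not called, and −0.31 after scaling (limma adjusted p = 0.0179). That scaled call held in 4 of the 6 fits without 1 library. Slc7a11, the cystine carrier gene that supplies glutathione synthesis, was at 0.00552 FPKM in PKI and 0.00315 FPKM in WT and was not tested, and Gpx2 was listed at 0 in all 6 libraries. Also untested, Cbr3 (1.25 FPKM in PKI and 0.544 FPKM in WT), Osgin1 (0.769 and 0.363 FPKM) and Gsta3 (1.06 and 0.644 FPKM) had every PKI library above every WT library as deposited. After scaling only Cbr3 did. Of tested genes, 51.3% did so as deposited and 18.6% after scaling. Untested Gsta2, Gstm3 and Abcc3 overlapped between groups.

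**Figure D4:**
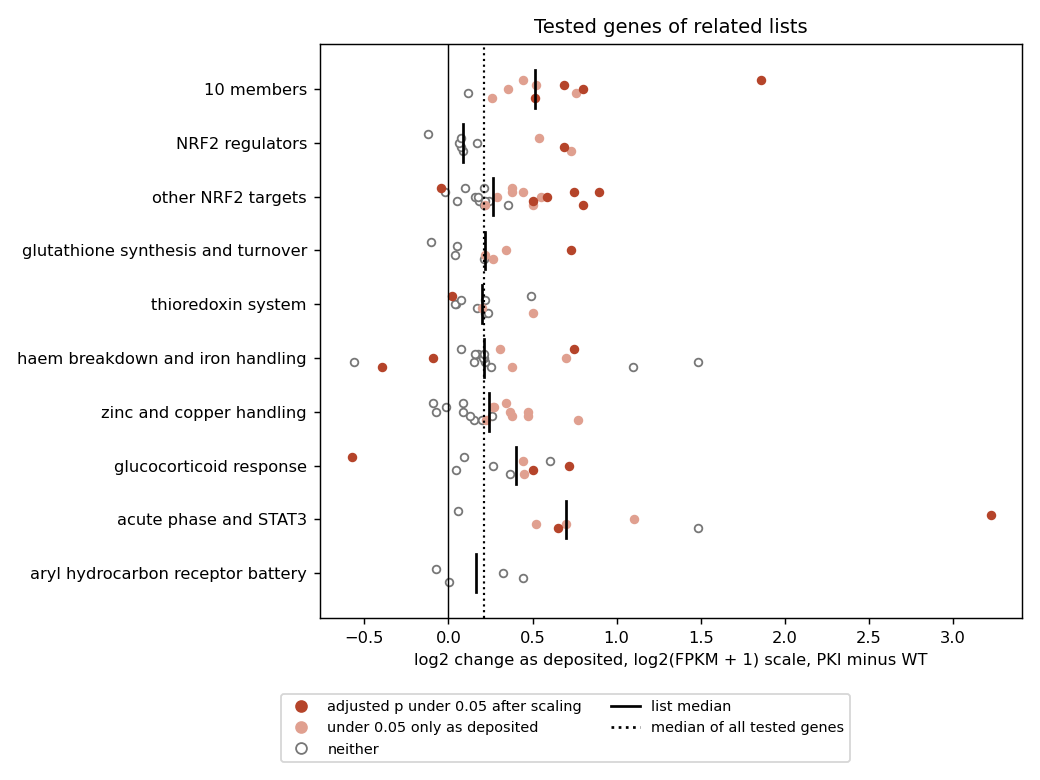
Log2 change as deposited, PKI minus WT (horizontal axis), of the 10 members and of the tested genes of 9 related lists (rows); dark red dots passed after scaling, light red dots passed as deposited only, open dots passed on neither scale, black bars are list medians and the dotted line is the median of all tested genes (0.21). On this log2(FPKM + 1) scale Mt2 lies at 1.86, beyond every other gene shown except Serpina3n at 3.22. The scale understates changes of low genes. By ratio of mean FPKM, Lcn2 (7.36), Hp (7.36) and Hpx (8.63) exceeded Mt2 (3.99), each with its highest value in PKI replicate 2. A gene on several lists appears in each of those rows.

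Around glutathione, 4 of 8 tested genes rose and 0 fell (median 0.22), beside 36.4% higher over all tested genes. After scaling 1 rose (median 0.01), beside 8.54%. Slc3a2, the heavy chain of amino acid carriers that include the cystine carrier, averaged 6.70 ± 0.692 FPKM in PKI and 3.64 ± 0.299 FPKM in WT (log2 change 0.73, limma adjusted p = 0.00211; 0.50 and 0.0127 after scaling, the scaled call holding in 4 of the 6 fits without 1 library). Glutathione synthetase, Gss, averaged 1.80 ± 0.0785 FPKM in PKI and 1.33 ± 0.0813 FPKM in WT, and the peptidase gene Lap3 averaged 16.3 ± 1.16 FPKM in PKI and 12.7 ± 1.63 FPKM in WT. Both were called as deposited only, and each lost the call in some fits without 1 library (highest adjusted p 0.0749 and 0.103). In the thioredoxin system 2 of 11 tested genes rose, Txn1 and Prdx2 (median 0.20), beside 36.4% over all tested genes. After scaling 0 rose and 1, Sesn1, fell (median −0.07), beside 8.54% higher and 8.23% lower. The scaled call of Sesn1 was lost in all 6 fits without 1 library. Txn1, the cytosolic substrate of Txnrd1, averaged 33.0 ± 3.52 FPKM in PKI and 23.0 ± 1.53 FPKM in WT (limma adjusted p = 0.00697; 0.149 after scaling). Prdx2 averaged 46.5 ± 0.840 FPKM in PKI and 40.4 ± 0.691 FPKM in WT. Its log2 change was 0.20 as deposited (limma adjusted p = 0.0238) and −0.07 after scaling (0.454). As deposited its call held in 3 of the 6 fits without 1 library (adjusted p up to 0.0735). Mitochondrial Txn2 averaged 15.0 ± 0.568 FPKM in PKI and 13.3 ± 0.851 FPKM in WT and was not called.

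Among 18 genes of haem breakdown and iron handling, 4 rose and 1 fell (median 0.21), beside 36.4% higher and 2.96% lower over all tested genes. After scaling 1 rose and 2 fell (median 0.01), beside 8.54% and 8.23%. Ftl1, the ferritin light chain, averaged 84.7 ± 11.6 FPKM in PKI and 49.8 ± 5.02 FPKM in WT (log2 change 0.75, limma adjusted p = 0.00421; 0.48 and 0.0375 after scaling), and its scaled call held in 2 of the 6 fits without 1 library. The ferritin heavy chain gene Fth1 averaged 876 ± 60.8 FPKM in PKI and 773 ± 21.3 FPKM in WT. It was not called (log2 change 0.18, limma adjusted p = 0.0511; −0.10 and 0.377 after scaling). Ferritin genes have many processed copies, and how reads were divided among them is unknown. The haem transporter gene Slc48a1 averaged 15.6 ± 1.15 FPKM in PKI and 11.8 ± 0.837 FPKM in WT. The ferroxidase gene Cp averaged 10.1 ± 1.58 FPKM in PKI and 5.89 ± 1.42 FPKM in WT. Both were called as deposited only, and Cp lost its call in 1 fit without a library (adjusted p = 0.0549). Ftl1 and Slc48a1 were also counted among the further NRF2 targets, and Cp among the acute phase genes. Slc40a1, the iron exporter ferroportin, fell to 1.15 ± 0.0914 FPKM in PKI, against 1.84 ± 0.357 FPKM in WT (limma adjusted p = 0.0253; 0.0135 after scaling), although 5 of the 6 fits without 1 library did not call it as deposited (adjusted p up to 0.0775). Its scaled call held in 4 of 6. Fech, which also fell after scaling, averaged 37.0 ± 1.91 FPKM in PKI and 39.5 ± 1.91 FPKM in WT. Its log2 change was −0.09 as deposited (limma adjusted p = 0.287) and −0.36 after scaling (0.0127). The scaled call of Fech held in 5 of the 6 fits without 1 library. The constitutive haem oxygenase gene Hmox2 averaged 13.6 ± 3.53 FPKM in PKI and 11.3 ± 2.99 FPKM in WT, with overlap between the groups, and was not called.

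For metal handling, 9 of 18 tested genes rose and 0 fell as deposited (median 0.24), beside 36.4% higher over all tested genes. After scaling 0 rose or fell (median 0.02), beside 8.54% and 8.23%, and 7 had an unadjusted limma p under 0.05. The zinc importer genes Slc39a1 (17.0 ± 0.797 FPKM in PKI and 12.0 ± 0.728 FPKM in WT), Slc39a13 (3.30 ± 0.118 FPKM in PKI and 2.30 ± 0.0666 FPKM in WT) and Slc39a14 (3.38 ± 0.258 FPKM in PKI and 2.15 ± 0.229 FPKM in WT) had the smallest p (limma adjusted p = 0.00371, 0.00559 and 0.00640; 0.0765, 0.112 and 0.0557 after scaling). Mtf1, which encodes the metal-sensing activator of metallothionein genes, was at 1.28 ± 0.169 FPKM in PKI and 1.04 ± 0.0812 FPKM in WT, not called. Its other classical target, the zinc exporter gene Slc30a1, was at 2.94, 2.76 and 2.46 FPKM in PKI and 2.32, 2.95 and 2.01 FPKM in WT, with overlap, and was not called (log2 change 0.12, 95% interval −0.14 to 0.39).

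Of 10 glucocorticoid response genes, 4 rose and 1 fell (median 0.40), beside 36.4% higher and 2.96% lower over all tested genes. After scaling 2 rose and 1 fell (median 0.17), beside 8.54% and 8.23%. Tsc22d3, the glucocorticoid-induced leucine zipper, averaged 9.11 ± 0.715 FPKM in PKI and 5.13 ± 0.0551 FPKM in WT (limma adjusted p = 0.00102; 0.00665 after scaling). The receptor co-chaperone gene Fkbp5 averaged 1.64 ± 0.132 FPKM in PKI and 0.863 ± 0.157 FPKM in WT (limma adjusted p = 0.00640; 0.0358 after scaling). With scaling and 1 library left out, Tsc22d3 passed in all 6 fits and Fkbp5 in 1. The receptor gene Nr3c1 averaged 10.5 ± 0.772 FPKM in PKI and 7.48 ± 1.19 FPKM in WT, called as deposited only (adjusted p of up to 0.0618 without 1 library). Zbtb16, also a known glucocorticoid target, fell to 1.53 ± 0.14 FPKM in PKI, against 2.86 ± 1.05 FPKM in WT, and lost its call in 5 of the 6 fits without 1 library (adjusted p up to 0.10), and its scaled call held in 2 of 6.

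Of 7 tested acute phase and STAT3 genes, 5 rose and 0 fell (median 0.70), beside 36.4% higher over all tested genes. After scaling 2 rose (median 0.46), beside 8.54%. Stat3 stood at 8.03, 7.88 and 8.20 FPKM in PKI, against 5.08, 5.06 and 4.18 FPKM in WT (log2 change 0.65, limma adjusted p = 0.00212; 0.41 and 0.0155 after scaling). The serpin gene Serpina3n averaged 33.3 ± 9.08 FPKM in PKI and 2.71 ± 1.10 FPKM in WT (log2 change 3.22, limma adjusted p = 0.000591; 2.99 and 0.00106 after scaling). With scaling and 1 library left out, Serpina3n passed in all 6 fits and Stat3 in 4. PKI replicate 2 had the highest Serpina3n (28.7, 43.8 and 27.5 FPKM in PKI) and also the highest Mt2. Hp was at 1.82, 22.3 and 2.27 FPKM in PKI and 1.63, 0.567 and 1.39 FPKM in WT, not called. Lcn2 was at 1.08, 4.05 and 0.957 FPKM in PKI and 0.189, 0.391 and 0.246 FPKM in WT, called as deposited only. Without PKI replicate 2, the log2 change of Mt2 was 1.78 as deposited. The cytokine co-receptor gene Il6st averaged 15.6 ± 1.80 FPKM in PKI and 10.5 ± 0.687 FPKM in WT, called as deposited only. Among untested genes, Socs3 averaged 1.38 ± 0.490 FPKM in PKI and 0.464 ± 0.0488 FPKM in WT, and Osmr 1.28 ± 0.106 and 0.637 ± 0.108 FPKM. Both had every PKI library above every WT library on both scales, as did 51.3% of tested genes as deposited and 18.6% after scaling. Il6ra overlapped between groups, and Saa3 was at 0 in every library. Of 4 tested genes of the aryl hydrocarbon receptor battery, which shares Nqo1 as a target, 0 were called on either scale. Over all tested genes 39.4% were called as deposited and 16.8% after scaling. The median of the 4 was 0.16 as deposited and −0.03 after scaling. At an unadjusted limma p under 0.05 there were 2 as deposited and 1 after scaling. Tiparp was at 2.96 ± 0.526 FPKM in PKI and 2.16 ± 0.274 FPKM in WT, Cyp1b1 at 1.81 ± 0.363 FPKM in PKI and 1.08 ± 0.437 FPKM in WT, and Nqo2, the paralog of Nqo1, at 7.99 ± 1.06 FPKM in PKI and 8.44 ± 0.549 FPKM in WT.

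The tested genes whose log2(FPKM + 1) followed the mean of Mt1 and Mt2 most closely over the 6 libraries were Ppia, Pdcd6ip, Fgfr1, Gimap8 and Tnfrsf1a, with Pearson's r of 0.999, 0.998, 0.997, 0.997 and 0.997. Such an r includes the difference between the groups, and 1043 of 9905 genes had an r above 0.95. Their log2 changes were 0.30, 0.43, 0.57, 0.30 and 0.72 as deposited, and 0.04, 0.19, 0.39, 0.11 and 0.47 after scaling.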

How the data were processed

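RNA of 6 left ventricle libraries was measured, 3 labelled PKI and 3 labelled WT, grouped by title. Per the labels' protocols, Trizol RNA (total) went into Illumina TruSeq RNA libraries, a kit that does not mark strand. The deposited values are FPKM per gene, made by the authors; per the submitters' processing notes CASAVA, Bowtie 0.12.2 and build mm9 were used, and the program that made the FPKM is not given in the sources used here. Both deposited tables held identical values. Depth is unknown, since only 4.90% to 6.64% of low genes with 1 transcript lay on common read steps, so no counting interval is given.

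Genes averaging 1 FPKM or more were tested on log2(FPKM + 1), which understates changes of low genes, with limma 3.58.1 in R 4.3.3 (variance trend, two-sided, Benjamini-Hochberg over 9907 genes, called under 0.05). Every adjusted p is from limma. Exact permutation tests used scipy 1.17.1. The fit was tested on simulated data. Folds are ratios of mean FPKM. Alternatives were other scalings, pseudocounts, filters, the variance model, a block for the replicate number, and each library left out; scaling with a library left out was added after seeing the data. Identifiers (99.72% found) were looked up in GENCODE M21 (GRCm38); none was converted between builds. Sequences are RefSeq's (GRCm38.p6).

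Members and lists were chosen with earlier results of these data known. Named genes were the members, Ppargc1a, the 3 genes of each list with the smallest p, genes with a stated role beside a member, and the 5 genes most correlated with Mt1 and Mt2. Sesn1, Zbtb16, Myh6, Gstp1, Mafg, Fth1 and Fech were named after their values were seen. So were Lcn2, Hp, Hpx and the untested Bach2, Nfe2l3, Btrc, Cbr3, Osgin1, Gsta3, Gsta2, Gstm3, Abcc3, Socs3, Osmr, Il6ra and Saa3. The related lists share genes, among them Ftl1, Fth1, Slc48a1, Cp, Hp, Txn1 and Gsr, so their counts are not independent. Marker lists covered macrophages, fibroblasts, endothelium, smooth muscle and pericytes, cardiomyocytes, red blood cells, and neutrophils with lymphocytes.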

Additional observations from a re-analysis of the deposited data

How the results depend on the processing

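Scaling moved the counts furthest. Of all tested genes, 3902 were called as deposited (92.5% of them higher), 1661 after median-of-ratios scaling (50.9% higher), 1622 when scaled to the total without mitochondrial transcripts and their copies (62.8% higher), 1515 with quantile normalisation (49.7% higher) and 1925 at a minimum mean of 5 FPKM, where fewer genes were tested. Of the 10 members, 9 were called as deposited, 4 after median-of-ratios scaling, 5 with the total without mitochondrial transcripts (the additional gene was Gclc), 4 with quantile normalisation and 5 of the 6 members left at a minimum mean of 5 FPKM. Which scaling is right was not tested. Keap1 turned to −0.12 (median of ratios), −0.067 (nuclear total) and −0.13 (quantile), and to −0.094, −0.12, −0.15 (without PKI replicates 1, 2, 3), −0.14, −0.10 and −0.12 (without WT replicates 1, 2, 3) with median-of-ratios scaling. Leaving out 1 library as deposited left 2344 to 3425 genes and 7 to 8 members called, lowest over all genes without WT replicate 3 (2344) and PKI replicate 3 (2498). With median-of-ratios scaling it left 1017, 1199 and 859 genes and 3, 4 and 2 members without PKI replicates 1, 2 and 3, and 1588, 1141 and 865 genes and 4, 3 and 2 members without WT replicates 1, 2 and 3. Without a filter 7 members passed, Gclm and Srxn1 being lost (adjusted p = 0.0836 and 0.0928). Pseudocounts of 0.1 and 0.5 and the fit without a variance trend left 9 members called. Mt2, Hmox1, Mt1 and Nfe2l2 kept their direction and call in each of these alternatives in which they were tested, other than the scaled fits with a library left out, where Mt1 passed in 3 of 6 and Nfe2l2 in 2 of 6.

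With the replicate number as a block, 2849 genes and 8 members were called (Gclm lost, adjusted p = 0.0774). Deviations of same-numbered libraries from their group means correlated at −0.104, 0.00115 and 0.0529, which gave no sign of pairing by number. No PKI library but replicate 3 correlated best with its own number. With 3 libraries per group, such a check cannot exclude pairing. Depth is unknown, so counting error could not be given, and changes of genes with a group mean near 1 FPKM, such as Ugdh, Fkbp5, Abcc1 and Slc40a1, rest on the spread between libraries alone. Mt3 lay under the minimum and was not tested.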
